A study of Mus musculus with 18 samples.

Results

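Translating ribosome affinity purification (TRAP) with RNAseq was used to ask for which genes the response to lipopolysaccharide (LPS) differed between tagged ribosomes and whole brain tissue. The comparison is a fraction by treatment interaction. For each animal with both libraries, the log2 ratio of the Positive fraction (ribosomes pulled down by their tag) over Input (the homogenate they came from) was taken for every gene, and the ratios of LPS animals were compared with those of PBS animals. It rests on 8 animals and 16 of the 18 libraries of the series. All 14818 genes past a filter on low counts were tested, out of 36172 listed.

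All mice were Cx3cr1-cre/ERT2+; NuTRAP+, heterozygous for both alleles, about 3 months old when given tamoxifen, and taken from 3 to 4 weeks after it. The 4 LPS animals (numbers 266, 267, 270 and 507, of which 3 were female) received 5 mg/kg LPS by intraperitoneal injection, and the 4 PBS animals (268, 272, 273 and 506, of which 2 were female) received the vehicle. Brain was collected 24 h later, and a hemisected brain per animal was homogenised. Cx3cr1 drives the inducible recombinase, so controls carry the same driver, tag and tamoxifen exposure, and border-associated macrophages and monocytes can use that promoter as well as microglia. The study waited 3 to 4 weeks after tamoxifen so that circulating monocytes, which are short-lived and soon replaced, would not be labelled. A ninth animal (271, LPS) had an Input library with 1252 counts, so it has no ratio and is in none of the main fits. Its Positive library was added in an alternative fit only.

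In NuTRAP mice a recombined cell labels its ribosomes with an EGFP-tagged ribosomal protein, and an antibody to GFP recovers the mRNA that those ribosomes carry. Microglia are the resident macrophages of the brain. They sense LPS, an outer membrane component of Gram-negative bacteria, through Toll-like receptor 4 (TLR4), which acts through the adaptors MyD88 and TRIF to activate NF-kB and interferon signalling. Astrocytes, endothelial cells and other cells of the tissue respond to the cytokines that follow. Input holds the RNA of all these cells, microglia included, whether or not it is on ribosomes.

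The 16 libraries held from 22968939 to 35123345 estimated counts and from 17767 to 18642 genes with a count. At these totals 3 counts, taken as the limit of detection, are between 8.54e-06% and 1.31e-05% of a library. The defining gene of the driver, Cx3cr1, lay between 471 and 1002 normalised counts in Input and between 9077 and 16530 in Positive. Its ratio did not differ between treatments past the threshold (difference -0.16, SE 0.12, adjusted p 0.408). Over the 238 tested genes of the study's microglia list the median log2 ratio was 3.34 ± 0.155 in PBS animals (SD, n = 4) and 3.18 ± 0.170 in LPS animals (n = 4), with an exact permutation p of 0.286 (two-sided, 70 assignments, smallest possible p 0.0286). Of the LPS animals, 266 had the lowest median, 2.93, against 3.23 to 3.30 in the other 3. In RNA from pooled cells, fewer cells of a type and less RNA per cell cannot be told apart. Positive also held RNA of neuron genes at near the Input level. The study's neuron list summed to 705195 to 783339 normalised counts in Positive PBS and 756937 to 771568 in Input PBS. The source of this RNA was not tested. Values in Positive at ratios near 0 therefore need not come from tagged cells.

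The LPS effect differed between the fractions for 1916 of 14818 genes (12.9%), at a Benjamini-Hochberg adjusted p under 0.05 and a difference of over 0.32 on the log2 scale (the fold threshold), by edgeR's quasi-likelihood test with the animal as a block. The difference is the log2 LPS change in Positive minus that in Input, fitted with the animal as a block. The changes given for each fraction come from a separate fit, so their subtraction can depart from the difference. The difference was higher in Positive for 1336 genes (9.02%) and lower for 580 (3.91%). The split moved with scaling, from 69.7% of calls higher in Positive to 55.2% when libraries were scaled by their totals and 90.7% when the ratios were centred on the microglia list, which raised the median of all genes from -0.01 to 0.15. All 1916 genes kept their sign under both of these scalings. They had been chosen for a difference of over 0.32, so shifts of this size could hardly turn a sign. The difference was over 1 on the log2 scale, which is a ratio of folds over 2, for 345 genes and over 2 on that scale for 67. The ratios of LPS and PBS animals did not overlap for 1741 of the 1916 genes, against 2926 of all genes (19.7%). The calls were made from these same libraries, so the lack of overlap largely follows from them and is no separate support. Without the block the count fell to 925, of which 923 were among the 1916.

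The calls were sorted by what LPS did within each fraction, tested with 1 mean per group. LPS raised 2683 genes (18.1%) and lowered 1939 (13.1%) in Positive, and raised 1123 (7.58%) and lowered 831 (5.61%) in Input. Of the 1446 genes called in both fractions 1433 moved in the same direction, and for 262 of these the sizes of the change differed past the threshold. Of 3176 genes called in Positive alone the difference was called for 1169, and of 508 called in Input alone for 138. The 1916 genes fell into a rise larger in Positive (1067 genes), a fall larger in Positive (309), a rise larger in Input (133), a fall larger in Input (60) and opposite directions (13). For the remaining 334 genes, 200 higher and 134 lower in Positive, LPS was called in neither fraction by itself. The absolute fitted change was larger in Positive for 1568 of the 1916 genes and larger in Input for 348.

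**Figure D1:**
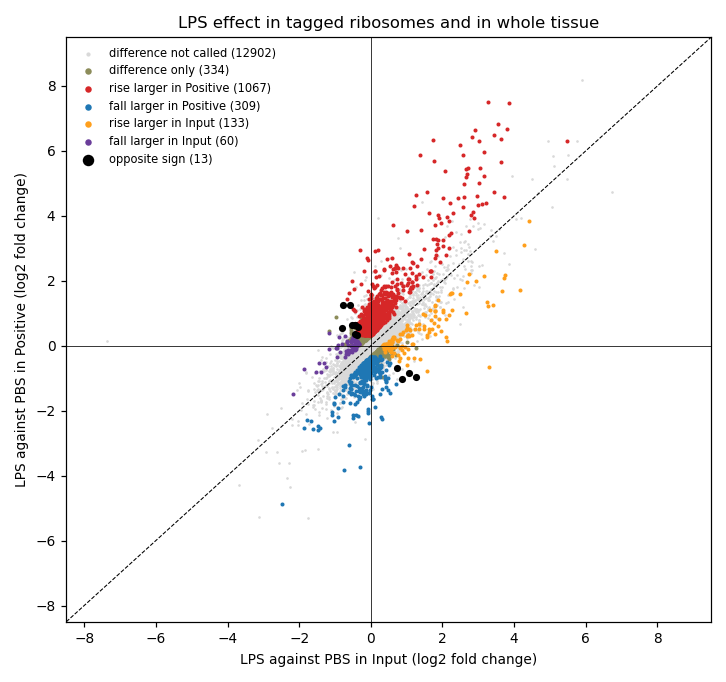
Each point is 1 of 14818 genes, with its fitted log2 LPS change in Input (x axis) and in Positive (y axis); colours give the 6 groups of called genes with their counts, and the dashed line marks equal change. Genes with a rise larger in Positive (1067) lie above the line, 369 of them with a fitted Input change below 0, genes with a rise larger in Input (133) below it, and the 13 genes with opposite directions lie in the upper left and lower right.

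Among genes that rose more in the tagged fraction, the 6 with the largest difference among those that averaged 100 normalised counts or more and had no overlap between treatments were 1810033B17Rik, Irg1, Trem1, Marco, Il1r2 and Postn. Irg1 (chromosome 14, 103047012 to 103056573), which encodes the enzyme that makes the antimicrobial metabolite itaconate, had 2965, 1678, 491 and 1433 normalised counts in the Positive libraries of LPS animals 266, 267, 270 and 507, and 13.2, 3.83, 15.8 and 3.85 in those of PBS animals 268, 272, 273 and 506. In Input it had 239, 98.3, 34.0 and 98.3 counts in the LPS animals and from 10.4 to 15.4 in the PBS animals. LPS libraries were above PBS libraries in both fractions, and animal 270 was the lowest LPS animal in each. The log2 change was 7.50 in Positive and 3.26 in Input, a difference of 4.27 (SE 0.40, adjusted p 1.78e-05). Its counts in the PBS libraries were low, and the PBS ratios spread from -1.76 to 0.42, so the size of this difference is uncertain.

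Marco, a scavenger receptor of macrophages (chromosome 1, 120474538 to 120505084), had 65460, 44270, 3065 and 32720 counts in the Positive LPS libraries and 133, 162, 217 and 309 in the Positive PBS libraries. In Input it had 4151, 2424, 251 and 1708 counts in the LPS animals against 126 to 164 in the PBS animals. Again animal 270 was far below the other LPS animals in each fraction, but its ratio (3.61) was near theirs (3.98, 4.19 and 4.26), and all 4 were far from the PBS ratios of -0.05 to 0.91. The difference was 3.59 (SE 0.21, adjusted p 3.48e-07). The animal with the lowest Marco level after LPS was thus the same in both fractions.

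Within the same limits on level and overlap the difference was largest for 1810033B17Rik, 4.56 (SE 0.27, adjusted p 3.51e-07), on chromosome 8 from 3665762 to 3668905. It rose from between 9.19 and 15.4 counts in Positive PBS to 1251, 1165, 381 and 1105 in Positive LPS, and from between 21.2 and 22.99 to between 40.7 and 88.3 in Input. In PBS brain this gene was therefore lower in the tagged fraction than in the tissue, and after LPS it was higher. Trem1, a receptor that amplifies myeloid inflammation, rose to 360, 300, 817 and 281 counts in Positive LPS from 3.94 to 8.98 in Positive PBS (difference 3.64, SE 0.44, adjusted p 0.000132). In Input PBS it held 2.87 to 8.32 counts. It passed the filter on counts through its LPS libraries only, and its PBS ratios rest on counts near the limit of detection, so the size of its difference is uncertain. Il1r2, a decoy receptor for interleukin-1, differed by 3.46 (SE 0.74, adjusted p 0.00729) and had a wide spread, with ratios of 1.70 in animal 266 and 3.55 to 4.29 in the other LPS animals. Its PBS libraries were low as well, with 5.25 to 20.5 counts in Positive and 7.70 to 21.8 in Input. Postn, the matrix protein periostin, rose evenly, to between 1970 and 2386 counts in the 4 Positive LPS libraries from between 46.0 and 110 in Positive PBS, while Input LPS held 141 to 208 (difference 3.37, SE 0.20, adjusted p 3.48e-07).

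Targets of NF-kB and of Toll-like receptors followed. Of 46 such genes tested 23 had a difference higher in Positive and 0 had one lower, beside 9.02% and 3.91% of all genes, and the median difference was 0.80 against -0.01 for all genes. Without the block 14 of the 23 were called. The remaining 23 did not pass the test. Counting the LPS effects of all 46, 45 rose in Positive and 35 in Input, beside 18.1% and 7.58% of all genes. The chemokine gene Ccl5 rose by 6.81 in Positive and by 3.55 in Input (difference 3.25, SE 0.18, adjusted p 2.63e-07), and the acute phase gene Saa3 by 6.38 and 3.64 (difference 2.83). The inhibitors of the pathway were among them. Nfkbiz, an atypical inhibitor that also acts as a co-activator, rose by 3.53 and 1.00, Tnfaip3, the deubiquitinase A20, by 2.98 and 1.5, and Nfkbia, which encodes the inhibitor IkBa, by 1.52 and 0.75. All 3 differences were called (2.54, 1.51 and 0.78). Among 27 genes of the receptor complex and its adaptors 5 were higher in Positive and 1 was lower. Irak3, a negative regulator of the receptor kinases, differed by 1.71, Tlr2 by 1.07, the TRIF gene Ticam1 by 0.63 and Myd88 by 0.61, the last 2 of which were not called without the block (0.62 and 0.62).

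**Figure D2:**
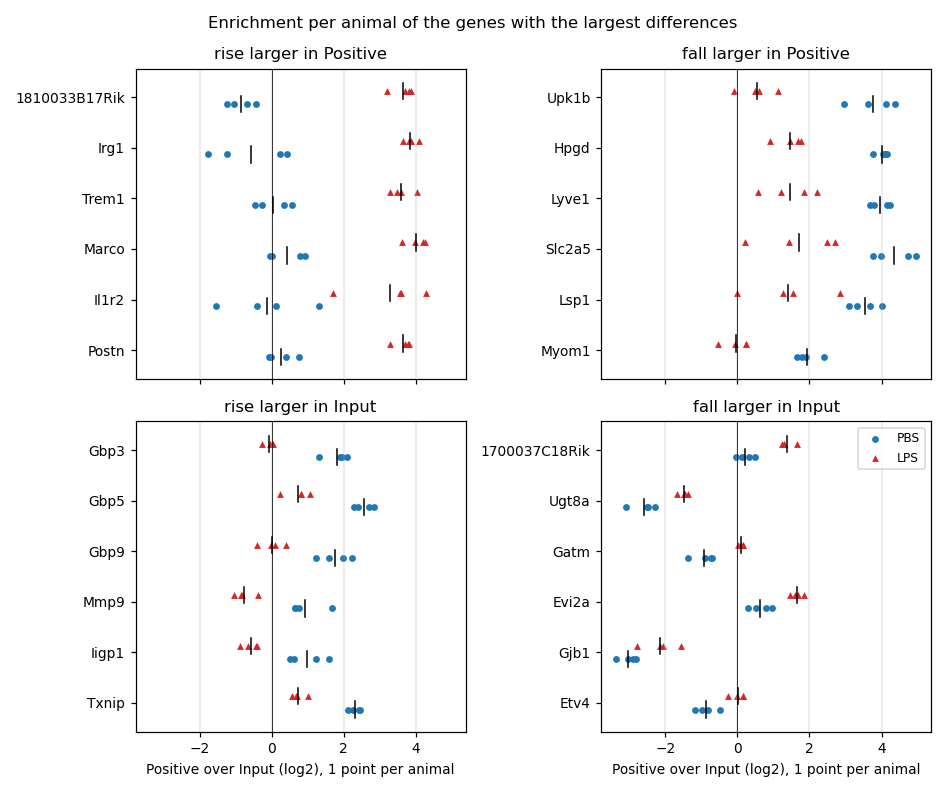
Log2 ratio of Positive over Input in each animal for the 6 genes with the largest difference in each of 4 groups, among those that averaged 100 counts or more and did not overlap; circles are PBS animals, triangles LPS animals and black bars the mean of 4. In the upper left panel the ratios of PBS animals lie between -1.76 and 1.31 and those of LPS animals between 1.70 and 4.29, and in the upper right panel the order is the other way round.

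Cytosolic ribosomal protein genes were higher in Positive after LPS as a group. Of 81 tested 76 had a difference higher in Positive and 0 had one lower, beside 9.02% and 3.91% of all genes, with a median difference of 0.66 and single values that were not over 1.03. LPS raised 79 of them in Positive (median 0.65) and 1 in Input (median 0.01), beside 18.1% and 7.58% of all genes. The median log2 ratio over the list was 0.90, 0.69, 0.59 and 0.82 in LPS animals 266, 267, 270 and 507, and 0.24, -0.27, 0.12 and 0.24 in PBS animals 268, 272, 273 and 506. The treatments did not overlap, and PBS animal 272 lay below the other PBS animals. Without the block 72 genes were called, without animal 272 71, and with the scaling by totals 72. Reads from these genes can be shared with their many processed copies in the genome, and how the counting treated such reads was not given in the sources used here.

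Rps19 had the largest difference of the list, 1.03 (SE 0.14, adjusted p 0.000263), with a log2 LPS change of 1.06 in Positive and 0.02 in Input, and Rpl35, Rps18 and Rps26 followed with 1.02, 1.00 and 0.99. Many mRNAs of ribosomal proteins begin with a C and a run of pyrimidines, the 5′ terminal oligopyrimidine (TOP) motif, through which their translation is controlled. The starts of Rpl35, Rps18 and Rps26, chosen because they hold the motif, are shown to let it be seen in genes of this list. The run spans the start base in Rpl35 and Rps18 and begins after it in Rps26. Each sequence is 15 bases before and 15 after the RefSeq start on GRCm38.p6, read on the strand of the gene. Capitals mark a C and the pyrimidines after it, beginning within 5 bases of the start. In Rpl35 the pyrimidine run extends further upstream, in lower case. The sequences lie at chr2:39005117-39005146 (minus strand), chr17:33955651-33955680 (minus strand) and chr10:128626492-128626521 (minus strand).
Rpl35: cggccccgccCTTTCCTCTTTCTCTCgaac
Rps18: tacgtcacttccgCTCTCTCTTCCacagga
Rps26: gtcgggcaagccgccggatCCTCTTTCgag
A C followed by at least 4 pyrimidines, beginning within 5 bases of a RefSeq start on the transcribed strand, was found for 30 of 60 genes of the list with a sequence (50.0%), and for 2775 of 11685 tested genes with a sequence (23.7%). It was found for 215 of 874 genes with a rise larger in Positive (24.6%), so the motif was about as common there as among all genes. Rps19 had no match within that distance in any of its RefSeq windows.

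Other genes of protein synthesis and turnover moved the same way in part. Of 37 translation factor genes 16 were higher in Positive and 1 lower (median 0.27), of 38 proteasome genes 23 and 1 (median 0.37), and of 32 genes of the unfolded protein and integrated stress responses 19 and 0 (median 0.47), beside 9.02% higher and 3.91% lower of all genes. Without the block 15 proteasome genes and 11 of the stress responses were called. Eif5a, Gnb2l1 (the ribosomal scaffold RACK1), Eef1g and Eif4a1 differed by 0.98, 0.94, 0.82 and 0.79, and none of the 4 passed the test for LPS in Input by itself. Sdf2l1 and Manf, chaperone factors of the endoplasmic reticulum, differed by 1.64 and 1.18. Manf had a ratio of 1.13 in animal 270 against 1.89 to 1.92 in the other LPS animals and 0.39 to 0.68 in PBS animals. Psme2, a subunit of the proteasome activator, differed by 0.85, and the core subunit genes Psmb3 and Psma1 by 0.64 and 0.58. In the stress response list the call count fell to 12 without animal 267 and to 12 without animal 507. Of 74 genes of oxidative phosphorylation 13 were higher in Positive (median 0.22), beside 9.02% of all genes. Only 2 of the 13 were raised by LPS in Positive itself, and 3 were called without the block. Atp5g2, a subunit of ATP synthase, was raised by 0.68 in Positive and had -0.05 in Input. That list depended on single animals, with 22 calls without animal 506, 8 without animal 272 and 7 without animal 507, and 34 when the ratios were centred on the microglia list.

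**Figure D3:**
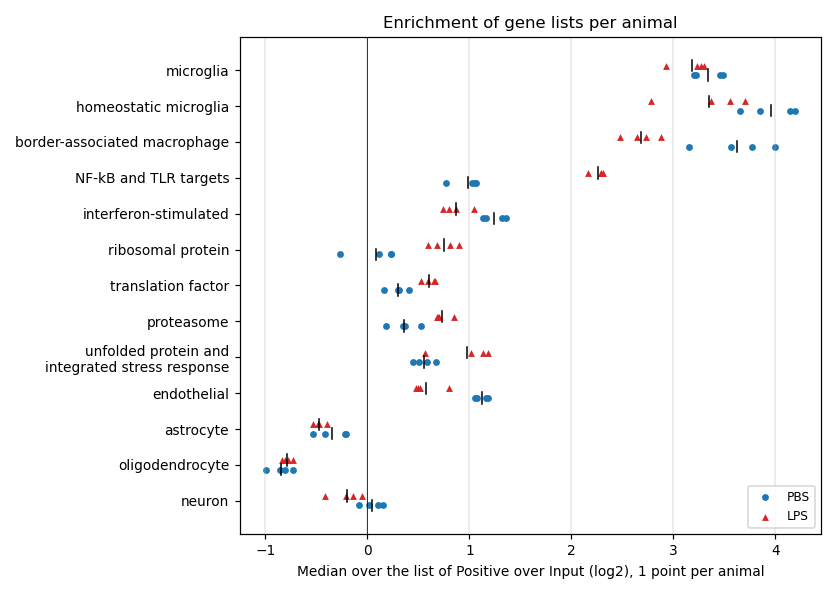
Median log2 ratio of Positive over Input over each gene list, with 1 point per animal (circles PBS, triangles LPS) and black bars for the mean of 4. The ribosomal protein and the NF-kB and TLR target lists have every LPS animal above every PBS animal, the endothelial, interferon-stimulated and border-associated macrophage lists have every LPS animal below every PBS animal, and the microglia, astrocyte and oligodendrocyte lists overlap.

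Genes that fell more in the tagged fraction included some markers of resting microglia and of border-associated macrophages. Within the limits on level and overlap, the 6 with the largest difference were Upk1b, Hpgd, Lyve1, Slc2a5, Lsp1 and Myom1. Slc2a5, the fructose transporter of microglia (chromosome 4, 150119344 to 150144168), had 2678, 3207, 2382 and 3286 counts in the Positive libraries of PBS animals 268, 272, 273 and 506 and 37.1, 93.2, 173 and 85.4 in those of LPS animals 266, 267, 270 and 507. In Input it had 100, 237, 150 and 105 counts in the PBS animals and 31.8, 34.3, 25.7 and 14.5 in the LPS animals. It fell by 4.87 on the log2 scale in Positive and fell by 2.49 in Input (difference -2.49, SE 0.44, adjusted p 0.00221).

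Hpgd, which degrades prostaglandins, fell from between 2110 and 2745 counts in Positive PBS to between 358 and 563 in Positive LPS. In Input its counts were 123 to 166 in PBS and 166 to 192 in LPS animals, where its log2 change of 0.30 did not pass the test (difference -2.56, SE 0.17, adjusted p 1.16e-06). The ratio of this gene thus dropped from about 4 to between 0.91 and 1.76, with the tissue level little moved. Upk1b, a tetraspanin gene, fell from between 336 and 539 to between 14.9 and 64.6 in Positive, with a log2 change of -0.76 in Input (difference -3.13, SE 0.37, adjusted p 0.00012). Lyve1, a hyaluronan receptor of border-associated macrophages, fell from between 535 and 1290 to between 126 and 323, with 0.28 in Input (difference -2.50, SE 0.30, adjusted p 0.000122). Myom1 differed by -1.95 and Lsp1 by -2.04, but Lsp1 had a ratio of 2.86 in animal 270 against -0.01 to 1.53 in the other LPS animals, and without the block its adjusted p was 0.099.

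Of 28 homeostatic microglia genes 7 were lower in Positive by the difference and 0 were higher (median -0.33), beside 3.91% of all genes lower. LPS itself lowered 19 of the 28 in Positive and 11 in Input, beside 13.1% and 5.61% of all genes. The ratios of the list overlapped between treatments, with an exact permutation p of 0.0571. Leaving out animal 270 raised the count to 13. The canonical genes P2ry12 and Tmem119 fell in both fractions, with log2 changes of -2.44 in Positive and -2.04 in Input for P2ry12 and of -0.77 and -0.61 for Tmem119, and their differences (-0.46 and -0.18) did not pass the threshold. Gas6, a ligand of the TAM receptors that clear dying cells, was lowered by 0.80 in Positive with 0.12 in Input (difference -0.93, SE 0.09, adjusted p 1.75e-05). Pros1, the other TAM ligand, had -0.10 in Positive and rose by 1.04 in Input (difference -1.16). Of 20 genes of border-associated macrophages 3 were lower and 0 were higher (median -0.48, and -0.31 when centred on the microglia list). Of these Mrc1 (-0.53) and Stab1 (-0.50) were close to the threshold, and each lost its call without the block. Mrc1 lost it without any animal but 270, at -0.43 to -0.61, and Stab1 without animal 272 (-0.49), 506 (-0.43) or 507 (-0.52). Stab1 did not fall in Positive, with changes of 0.02 there and 0.47 in Input that did not pass the test. The macrophage markers Cd163 (-0.15) and Pf4 (-0.98) had no called difference. Over the whole microglia list 26 genes were higher and 43 lower of 238, beside 9.02% and 3.91% of all genes, with 38 called without the block. The median of -0.13 turned to 0.03 when the ratios were centred on that list.

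Genes that rose more in Input than in Positive included interferon-inducible GTPases. Within the limits on level and overlap, the 6 with the largest difference were Gbp3, Gbp5, Gbp9, Mmp9, Iigp1 and Txnip. The guanylate-binding proteins and the immunity-related GTPases are induced by interferon and attack the membranes around intracellular pathogens. Gbp3 (chromosome 3, 142560052 to 142573212) had 1368, 592, 995 and 768 counts in the Input libraries of LPS animals 266, 267, 270 and 507 and 83.8, 137, 85.3 and 86.6 in those of PBS animals 268, 272, 273 and 506. In Positive it had 1142, 593, 959 and 785 counts in the LPS animals and 312, 340, 368 and 336 in the PBS animals. After LPS each animal held nearly the same level in its fractions, with ratios of -0.26 to 0.03, whereas in PBS animals the gene was higher in Positive, with ratios of 1.30 to 2.10. It rose by 3.25 in Input and by 1.36 in Positive (difference -1.87, SE 0.16, adjusted p 1.07e-05).

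Gbp5 rose by 3.67 in Input and by 1.69 in Positive (difference -1.85, SE 0.21, adjusted p 7.33e-05), and stayed enriched in Positive after LPS, with ratios of 0.24 to 1.07. Gbp9 rose by 2.09 in Input and had 0.26 in Positive, which did not pass the test (difference -1.78). The immunity-related GTPase genes Iigp1 and Irgm2 rose in both fractions, by 3.71 in Input and 2.07 in Positive for Iigp1 (difference -1.60, not called without the block at an adjusted p of 0.0765) and by 1.95 and 0.44 for Irgm2 (difference -1.53). These families hold similar genes, between which fractional counting can split reads, so values of single members are uncertain. Txnip, an inhibitor of thioredoxin and of glucose uptake, rose in Input from between 901 and 1025 to between 1804 and 2986 counts and had between 4274 and 5261 in Positive PBS and between 2886 and 4886 in Positive LPS (difference -1.57, SE 0.11, adjusted p 1.4e-06). Mmp9, a matrix protease, rose in Input from between 61.3 and 71.8 to between 156 and 182 counts, with a log2 change of -0.41 in Positive that did not pass the test (difference -1.73).

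The interferon-stimulated list as a whole was split. Of 65 genes tested 17 were lower in Positive by the difference and 8 were higher, beside 3.91% and 9.02% of all genes, and 40 did not pass the test. LPS raised 60 of them in Positive and 56 in Input, beside 18.1% and 7.58% of all genes. The median difference was -0.26 (-0.09 when centred on the microglia list, with 11 lower and 9 higher). Without animal 273 the count of lower genes was 10, and without the block 6. All 17 lower genes belonged to the group with a rise larger in Input, and the 8 higher genes to that with a rise larger in Positive. The immunoproteasome subunit Psmb8 rose by 2.11 in Input and by 0.83 in Positive (difference -1.28, SE 0.14, adjusted p 7.12e-05), against the direction of the other 23 called proteasome genes. Of 23 antigen presentation genes 4 were lower in Positive and 0 were higher. The class I gene H2-T23 and the peptide transporter Tap2 rose in Input by 1.16 and 1.02, with 0.33 and 0.55 in Positive, and Tap2 lost its call without animal 268 (-0.43) or 506 (-0.41). The class II genes H2-Aa and H2-Eb1 moved otherwise, with log2 changes of -2.13 and -2.52 in Positive and -1.09 and -1.42 in Input, and neither difference (-1.14 and -1.10) was called without the block.

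Interferon acts on many of these genes through the interferon-stimulated response element, which holds paired GAAA half-sites. The promoter stretches of Gbp3, Gbp5 and Irgm2 are shown. They were chosen because each has a rise larger in Input and holds such a pair (GAAA, any 2 bases and GAAA again, on either strand, in capitals, where overlapping pairs run together) within 250 bases before the RefSeq start on GRCm38.p6. They lie at chr3:142559974-142560039, chr3:142496744-142496803 and chr11:58214888-58214947, all on the plus strand.
Gbp3: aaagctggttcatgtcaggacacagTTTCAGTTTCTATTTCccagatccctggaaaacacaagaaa
Gbp5: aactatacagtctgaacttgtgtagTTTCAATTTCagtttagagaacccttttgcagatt
Irgm2: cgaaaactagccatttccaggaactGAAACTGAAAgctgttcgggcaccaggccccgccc
In windows from 250 bases before to 50 after the start, the pair was found for 19 of 107 genes with a rise larger in Input that had a sequence (17.8%), for 56 of 874 genes with a rise larger in Positive (6.41%) and for 431 of all 11685 tested genes with a sequence (3.69%). A gamma-activated site, TTCNNNGAA, was found for 17 of the 107 (15.9%), 73 of the 874 (8.35%) and 963 of all (8.24%). The NF-kB motif was found for 13 of the 107 (12.1%), 57 of the 874 (6.52%) and 763 of all (6.53%). The genes that rose more in Positive therefore held the NF-kB motif as often as all genes did. A match in a window is a description of its letters and does not show a bound site.

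Genes of the endothelium had lower ratios after LPS. Of 32 tested 19 were lower in Positive by the difference and 0 were higher, beside 3.91% and 9.02% of all genes (median -0.61, and -0.45 with 13 lower when centred on the microglia list). The median log2 ratio was 0.50, 0.80, 0.48 and 0.52 in LPS animals 266, 267, 270 and 507 and 1.18, 1.08, 1.16 and 1.06 in PBS animals 268, 272, 273 and 506, so the treatments did not overlap. The median of the list was thus above Input in each animal, although single genes such as Slco1c1 were below it in the LPS animals. The changes behind them were of several kinds. Slco1c1, the thyroid hormone transporter of the blood-brain barrier, fell by 2.48 in Positive and by 1.49 in Input (difference -0.99), the angiopoietin receptor gene Tek fell by 1.74 in Positive with -0.79 in Input (difference -0.89), and the tight junction gene Cldn5 rose by 0.53 in Positive and by 1.34 in Input (difference -0.82). Eng, a co-receptor for TGF-beta, had -0.24 in Positive and rose by 0.64 in Input (difference -0.90). Of the 19 genes 10 had a fall larger in Positive, 4 a rise larger in Input, and 5 were called for LPS in neither fraction. The summed level of the list was 25524 to 31862 normalised counts in Input PBS, 26910 to 32541 in Input LPS, 47071 to 59158 in Positive PBS and 35278 to 51156 in Positive LPS. Without the block 3 of the 19 were called, and Tek (adjusted p 0.294) and Cldn5 (0.0812) were not.

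**Figure D4:**
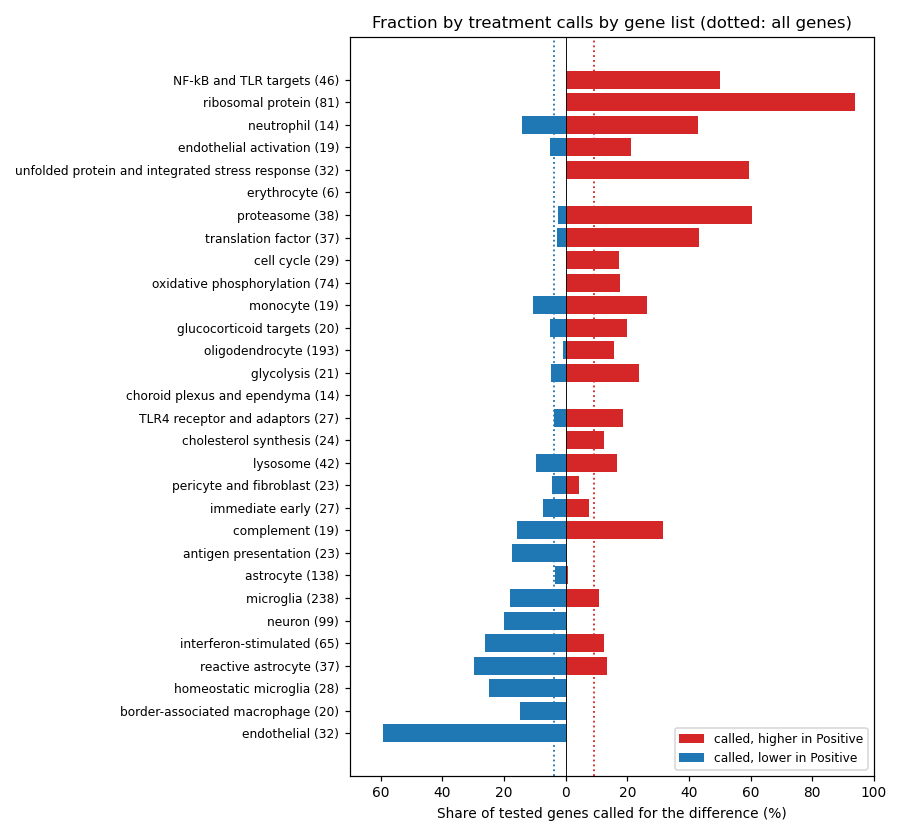
Share of the tested genes of each list (number tested in parentheses) called higher in Positive (bars to the right) and lower in Positive (bars to the left) for the fraction by treatment difference, with lists ordered by their median difference. Dotted lines mark the shares among all genes, 9.02% and 3.91%; the ribosomal protein list reaches furthest to the right (76 of 81) and the endothelial list furthest to the left (19 of 32).

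Genes that fell more in whole tissue included genes of oligodendrocytes. Of the 60 genes of this group 18 were on the oligodendrocyte list, of which 193 genes were tested. In all, 30 of the 193 were higher in Positive and 2 were lower (median 0.10), beside 9.02% and 3.91% of all genes, and the 30 included 10 with a rise larger in Positive. Without animal 272 the count of higher genes was 18, without animal 273 it was 16, and without the block 15 genes of the list were called in all. Within the limits on level and overlap, the largest differences of the 60 were those of 1700037C18Rik, Ugt8a, Gatm, Evi2a, Gjb1 and Etv4. Ugt8a, which makes the myelin lipid galactosylceramide (chromosome 3, 125865343 to 125938550), had 1204, 2029, 1281 and 1390 counts in the Input libraries of PBS animals 268, 272, 273 and 506 and 408, 419, 335 and 454 in those of LPS animals 266, 267, 270 and 507. In Positive it had 244, 239, 225 and 246 counts in the PBS animals and 147, 131, 121 and 176 in the LPS animals. It was the lower of the fractions in each animal, and fell by 1.87 in Input and by 0.73 in Positive (difference 1.11, SE 0.17, adjusted p 0.000747).

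Gatm, an enzyme of creatine synthesis, fell in Input from 3927, 5705, 4208 and 4224 counts in the PBS animals to between 1751 and 2196 in the LPS animals, and lay between 1876 and 2528 in all 8 Positive libraries (difference 1.04, SE 0.13, adjusted p 0.000177). Animal 272 was the highest PBS animal in Input for Ugt8a and Gatm. Evi2a and Etv4 differed by 1.02 and 0.88, and the connexin gene Gjb1 by 0.91, a call that was lost without any 1 of animals 266 (0.90), 267 (0.92), 270 (0.71), 272 (0.79) and 273 (0.91) and without the block. 1700037C18Rik had between 52.3 and 68.6 counts in Input LPS and between 84.7 and 153 in Input PBS, with 105 to 168 in the Positive libraries (difference 1.16). The count of this group was the least stable, with 20 genes without animal 272, 22 without animal 273, 27 without animal 507 and 35 without animal 266. Summed over the oligodendrocyte list, Input held 674456 to 812657 counts in PBS and 564750 to 631119 in LPS animals, and Positive 443333 to 468680 and 373485 to 414519.

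Some genes of the oligodendrocyte list rose in Positive and were not called for LPS in Input. Adamtsl4 rose by 2.92 in Positive with 0.12 in Input (difference 2.78, SE 0.21, adjusted p 3.45e-06), Galnt6 by 1.90 with -0.29 (difference 2.04), Elovl1, a fatty acid elongase, by 1.43 with -0.06 (difference 1.49), and the small GTPase gene Rhog by 1.06 with -0.05 (difference 1.09). Their ratios after LPS were over 0 in each LPS animal, from 0.21 for Galnt6 in animal 507 to 2.54 for Rhog in animal 266. The myelin gene Mbp fell by 0.57 in Input with -0.14 in Positive (difference 0.42), but its ratios overlapped, at -2.06 in LPS animal 507 and -2.05 in PBS animal 268. Other markers fell in both fractions with no called difference. Mog fell by 1.37 in Input and 1.24 in Positive (difference 0.10), and Opalin by 2.01 and 1.15 (difference 0.82).

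Opposite directions, with LPS called in each fraction, were found for 13 genes. The fitted changes had opposite signs for 861 of the 1916 called genes, whether or not LPS was called in each fraction. Kcnk13, a potassium channel of microglia (chromosome 12, 99964499 to 100062682), had 1095, 1011, 825 and 1132 counts in the Positive libraries of LPS animals 266, 267, 270 and 507 and 472, 451, 313 and 458 in those of PBS animals 268, 272, 273 and 506. In Input it had 246, 222, 159 and 210 counts in the LPS animals and 312, 456, 311 and 348 in the PBS animals. It rose by 1.26 in Positive and fell by 0.77 in Input, and the groups did not overlap in either fraction (difference 2.04, SE 0.16, adjusted p 2.99e-06). Rftn1, a lipid raft protein that aids TLR4 uptake, rose from between 303 and 422 counts to between 779 and 936 in Positive and fell from between 305 and 456 to between 240 and 282 in Input (difference 1.83, SE 0.14, adjusted p 2.6e-06). Its ratios in LPS animals were 1.69, 1.71, 1.79 and 1.73, and in PBS animals 0.24, -0.11, -0.18 and -0.34.

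Phgdh, which opens serine synthesis, rose by 0.55 in Positive and fell by 0.81 in Input (difference 1.35, SE 0.18, adjusted p 0.000285). Dhrs11 (0.64 and -0.52) and the ion channel gene Tmem63a (0.64 and -0.44) had the same directions. Others did the reverse. Arap3, a regulator of small GTPases, fell by 1.03 in Positive and rose by 0.87 in Input (difference -1.86), and Nes, the intermediate filament gene of progenitors and reactive cells, fell by 0.68 and rose by 0.73 (difference -1.39). A further 4 genes of this group, which fell outside the rule for naming and were chosen after their values were seen, were Tubb5 (0.34 in Positive and -0.37 in Input), 1110008P14Rik (0.38 and -0.45), Trmt61a (0.58 and -0.37) and 2210016F16Rik (0.64 and -0.44). All 13 were also called for the difference without the block. The group held 8 genes without animal 272 or 273 and 5 when animals 506 and 507 were left out together.

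**Figure D5:**
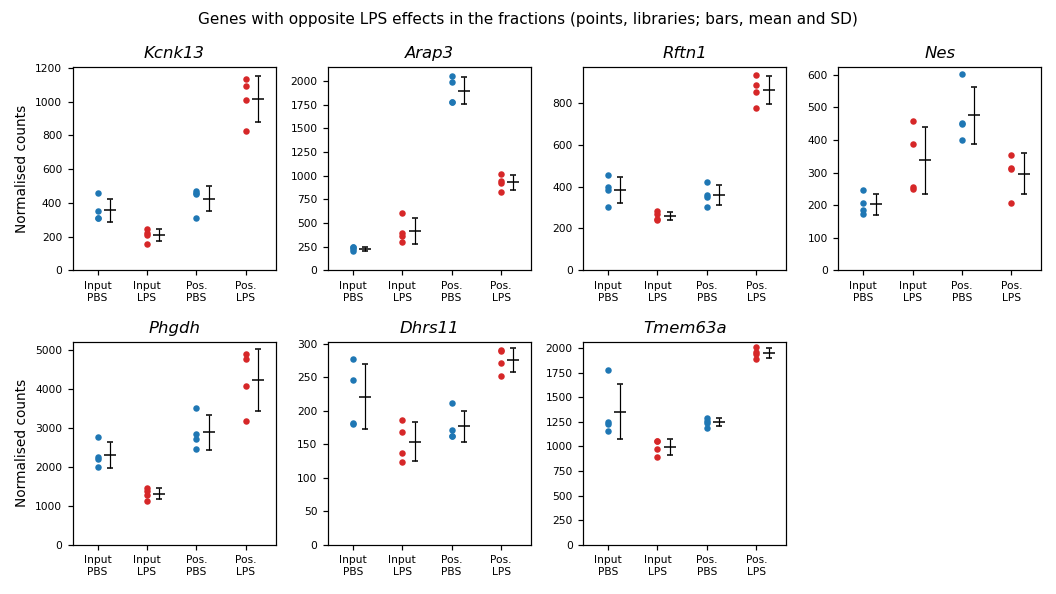
Normalised counts in each library (points) with the mean and SD of 4 libraries (bars) for 7 genes with opposite directions, for PBS and LPS animals in Input and then in Positive; each y axis starts at 0. Kcnk13, Rftn1, Phgdh, Dhrs11 and Tmem63a have a lower mean in Input LPS than in Input PBS and a higher mean in Positive LPS than in Positive PBS, and Arap3 and Nes show the reverse.

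Genes of blood leukocytes were examined next, since such cells can enter tissue after LPS. Of 14 neutrophil genes 6 were higher in Positive by the difference and 2 were lower (median 0.55), beside 9.02% and 3.91% of all genes, and 5 were called without the block. Those that led were Trem1, Il1r2, Fpr2 (3.19) and Fpr1 (2.65), genes that activated macrophages also express, and the last of which lost its call without animal 272 (2.34) and without the block. In PBS animals Fpr2, like Trem1 and Il1r2, had low counts, 2.88 to 23.1 in Positive and 8.29 to 16.3 in Input, so the size of its difference is uncertain. The defining gene Ly6g was at 0 in all 16 libraries, and Camp lay between 0 and 29.7 counts. S100a8 was between 168 and 554 counts in Positive LPS and between 5.75 and 24.1 in Positive PBS (difference 2.63). S100a9 (0.26) and Ngp (0.19) had no called difference, but LPS raised both in each fraction. S100a9 rose by 1.98 in Positive and 1.88 in Input, and Ngp by 2.53 and 2.46. The summed level of the list was 927 to 1358 counts in Input PBS, 7216 to 12408 in Input LPS, 2313 to 2635 in Positive PBS and 16676 to 34396 in Positive LPS. Of 19 monocyte genes 5 were higher and 2 lower (median 0.17), and 3 were called without the block. Hp, haptoglobin, differed by 3.12, the integrin gene Itgal by 2.26 and Emilin2 by 0.77. Hp was also low in PBS animals, with 2.88 to 29.5 counts in Positive and 11.55 to 32.6 in Input. The defining monocyte receptor gene Ccr2 moved the other way (-1.77), from between 30.7 and 60.4 counts in Positive PBS to between 7.33 and 14.97 in Positive LPS. The part of entering cells in these values was not tested.

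The neuron list had 20 of 99 genes lower and 0 higher (median -0.24), beside 3.91% and 9.02% of all genes, of which 1 was called without the block, 0 when centred on the microglia list, 6 without animal 266, 272 or 273 and 5 without animal 507. Its median ratio was -0.41, -0.14, -0.05 and -0.21 in LPS animals 266, 267, 270 and 507 and -0.08, 0.15, 0.10 and 0.01 in PBS animals 268, 272, 273 and 506, with an exact permutation p of 0.0571. Animal 266 was the lowest there as it was for the microglia list. Of 138 astrocyte genes 1 was higher and 5 were lower (median -0.12), a share of lower genes near the 3.91% of all genes. In the reactive astrocyte list 30 of 37 genes rose in Positive and 31 in Input, beside 18.1% and 7.58% of all genes. By the difference 11 were lower and 5 higher (median -0.32), beside 3.91% and 9.02% of all genes, and 6 were called without the block. Iigp1 and Psmb8 belong to this list as well. The matrix gene Fbln5 rose by 1.57 in Input with 0.32 in Positive (difference -1.25), and the proteoglycan gene Srgn rose by 1.81 in Input and by 2.95 in Positive (difference 1.09).

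The remaining lists were mixed or small, and their counts stand beside 9.02% higher and 3.91% lower of all genes. Of 19 complement genes 6 were higher and 3 lower, and 5 were called without the block. Cfb, of the alternative pathway, rose by 3.02 in Positive and by 1.86 in Input, Cfp, which stabilises its convertase, by 0.98 in Positive with -0.28 in Input, and Cd55, an inhibitor, by 1.28 with -0.04. Of 42 lysosome genes 7 were higher and 4 lower (median 0.00). Gusb and Ctsz rose more in Positive (differences 0.91 and 0.83), and Ctsd, cathepsin D, fell by 0.90 in Positive with -0.13 in Input (difference -0.82). Of 21 glycolysis genes 5 were higher and 1 lower. Pfkfb3, which makes the activator of phosphofructokinase, rose by 1.53 in Positive with 0.18 in Input (difference 1.34), Ldha rose by 0.35 in Positive with -0.27 in Input, which did not reach the fold threshold (difference 0.62), and the hexose transporter gene Slc2a6 differed by 1.02. Of 29 cell cycle genes 5 were higher and 0 lower, led by the replication helicase gene Mcm5 (1.13).

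Among the smaller lists, endothelial activation (4 higher and 1 lower of 19) and glucocorticoid targets (4 and 1 of 20) had a larger share of called genes than the 12.9% of all genes, with 3 and 1 called without the block. The others were cholesterol synthesis (3 and 0 of 24), immediate early genes (2 and 2 of 27), pericytes and fibroblasts (1 and 1 of 23), choroid plexus and ependyma (0 and 0 of 14) and erythrocytes (0 and 0 of 6).

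The Positive LPS library of animal 271, which entered none of the main fits, was set beside the 4 Positive PBS libraries for the genes of each group. It lay above the highest of them for 1029 of the 1067 genes with a rise larger in Positive (96.4%) and below the lowest for 294 of the 309 with a fall larger in Positive (95.1%), against 37.3% above and 35.3% below among all genes. For the genes with a rise larger in Input it lay above for 77 of 133 (57.9%), and for those with a fall larger in Input it lay below for 32 of 60 (53.3%). The PBS libraries are shared with the comparison that chose these genes. This library adds to the Positive side only, since its Input partner held 1252 counts.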

How the data were processed

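Trimming and directional alignment to mm10 were done by the authors in Strand NGS, and they deposited estimated counts per gene, of which 81.7% of nonzero values were not whole, beside log2 values normalised with DESeq. Counts were rounded and scaled by median-of-ratios size factors (0.761 to 1.31, from 15823 genes), and a gene was kept where every library of some group exceeded 20 normalised counts. edgeR 4.0.16 in R 4.3.3 fitted animal, fraction and fraction by LPS (6 residual degrees of freedom). LPS effects within a fraction came from a fit with 1 mean per group (12 residual degrees of freedom). Fold changes are fitted log2 values, ratios use a pseudocount of 1, and all adjusted p-values are edgeR's.

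The fractions of an animal are from the same homogenate, and their deviations from the group means correlated at 0.17 to 0.553. Genes are named by the size of the difference, where they averaged 100 normalised counts or more with no overlap of ratios between treatments, up to 6 in each group and 8 with opposite directions, and up to 4 called members of each gene list. Some genes that met this rule are not reported here. Members and lists were chosen with earlier results of these data known. The microglia, astrocyte, oligodendrocyte and neuron lists were tabulated by the study, and the others were written from general knowledge. Replicates are separate animals. Promoter sequences are from RefSeq (GRCm38.p6), matched by gene ID for 11685 tested genes. The model was tested on simulated data. The deposited log2 values, DESeq2 1.42.0, limma 3.58.1 and other scalings, filters and sets of animals were alternatives. Limits of detection cover counting error only. Standard errors come from the edgeR fits and SDs from the 4 animals of a group, so both include variation between animals.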

Additional observations from a re-analysis of the deposited data

Results flagged for a closer look

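The LPS effect differed between Positive and Input, by edgeR's test of the difference itself at an adjusted p under 0.05, for the genes given here with the log2 LPS change in Positive minus that in Input (8 animals). Among genes with a rise larger in Positive the values were 1810033B17Rik (4.56), Irg1 (4.27), Trem1 (3.64), Marco (3.59), Il1r2 (3.46) and Postn (3.37), and with a fall larger in Positive Upk1b (-3.13), Hpgd (-2.56), Lyve1 (-2.50), Slc2a5 (-2.49), Lsp1 (-2.04) and Myom1 (-1.95). With a rise larger in Input they were Gbp3 (-1.87), Gbp5 (-1.85), Gbp9 (-1.78), Mmp9 (-1.73), Iigp1 (-1.60) and Txnip (-1.57), and with a fall larger in Input 1700037C18Rik (1.16), Ugt8a (1.11), Gatm (1.04), Evi2a (1.02), Gjb1 (0.91) and Etv4 (0.88). With opposite directions they were Kcnk13 (2.04), Arap3 (-1.86), Rftn1 (1.83), Nes (-1.39), Phgdh (1.35), Dhrs11 (1.16) and Tmem63a (1.07).

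Of inflammatory lists the differences were Ccl5 (3.25), Saa3 (2.83), Nfkbiz (2.54), Tnfaip3 (1.51), Nfkbia (0.78), Lcn2 (0.83) and Ptgs2 (0.75) for targets of NF-kB and genes of endothelial activation, Irak3 (1.71), Tlr2 (1.07), Ticam1 (0.63) and Myd88 (0.61) for the TLR4 complex, Cd55 (1.30), Cfp (1.27) and Cfb (1.15) for complement, and Irgm2 (-1.53), Psmb8 (-1.28), H2-Aa (-1.14), H2-Eb1 (-1.10), H2-T23 (-0.82) and Tap2 (-0.48) for interferon and antigen presentation. For protein synthesis and turnover they were Rps19 (1.03), Rpl35 (1.02), Rps18 (1.00) and Rps26 (0.99) among ribosomal proteins, Eif5a (0.98), Gnb2l1 (0.94), Eef1g (0.82) and Eif4a1 (0.79) among translation factors, Sdf2l1 (1.64), Manf (1.18) and Creld2 (1.01) in the unfolded protein response and Psme2 (0.85), Psmb3 (0.64) and Psma1 (0.58) in the proteasome. Metabolic and lysosomal genes had Atp5g2 (0.73), Uqcrq (0.53), Uqcr11 (0.53), Atp5e (0.50), Pfkfb3 (1.34), Slc2a6 (1.02), Slc16a3 (0.71), Ldha (0.62), Gusb (0.91), Cd63 (0.88), Ctsz (0.83) and Ctsd (-0.82), and genes of DNA replication Mcm5 (1.13), Mcm2 (0.96), Mcm6 (0.63) and Mcm3 (0.55).

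By cell type the differences were Pros1 (-1.16), Gas6 (-0.93), Mrc1 (-0.53) and Stab1 (-0.50) for microglia and border-associated macrophages, Fpr2 (3.19), Fpr1 (2.65), S100a8 (2.63), Hp (3.12), Itgal (2.26), Ms4a6d (0.84), Emilin2 (0.77) and Ccr2 (-1.77) for neutrophils and monocytes, Slco1c1 (-0.99), Eng (-0.90), Tek (-0.89), Cldn5 (-0.82) and Pecam1 (-0.78) for endothelium, Adamtsl4 (2.78), Galnt6 (2.04), Elovl1 (1.49), Rhog (1.09) and Mbp (0.42) for oligodendrocytes, Ndnf (-0.95), Adarb2 (-0.79), Htr3a (-0.58) and Pcsk1 (-0.54) for neurons and Fbln5 (-1.25) and Srgn (1.09) for reactive astrocytes. Calls of some of the genes above were lost when a single animal was left out. Mrc1 lost its call without any of 7 animals, and Lcn2, Ms4a6d, Mcm2, Mcm3, Slc16a3 and Pcsk1 without any of 6 each. Gjb1 and Htr3a lost theirs for 5 animals, Ndnf and Atp5e for 4, Stab1 and Ptgs2 for 3, Tap2 for 2, and Uqcr11 and Fpr1 for 1 (animals 507 and 272).

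Of 218 groups of 4 ratios examined, 16 held an animal whose gap to the nearest other was past Dixon's limit for a group of 4, where chance alone gives about 1 group in 20. The log2 ratios of Positive over Input that stood apart were those of Mmp9 in PBS animal 268 (1.67), 1700037C18Rik in LPS animal 507 (1.64), Galnt6 in LPS animal 270 (1.55), Rhog in PBS animal 272 (0.75), Pcsk1 in LPS animal 266 (-0.95), Tnfaip3 in LPS animal 270 (3.28), Rps26 in PBS animal 272 (-0.39), Eif5a in LPS animal 270 (1.09), Eif5a in PBS animal 272 (0.19), Eif4a1 in LPS animal 270 (1.11), Uqcr11 in LPS animal 267 (0.48), Uqcr11 in PBS animal 272 (-0.42), Psmb3 in LPS animal 507 (1.28), Gusb in LPS animal 266 (3.03), Pfkfb3 in LPS animal 507 (1.66) and Manf in LPS animal 270 (1.13). Animal 270 accounted for 5 of the 16 and animal 272 for 4.

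The Positive LPS library of animal 271 is in none of the main fits. It lay above the highest Positive PBS library for 1029 of 1067 genes with a rise larger in Positive (96.4%). It lay below the lowest for 294 of 309 genes with a fall larger in Positive (95.1%). Among all genes the shares were 37.3% above and 35.3% below. The PBS libraries are shared with the comparison that chose these genes.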

How the results depend on the processing

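Under 22 alternatives, none of 2640 values of 120 genes chosen by the naming rule changed sign, 62 genes kept their call under every 1 of them and 268 values lost it. That rule took called genes with the largest differences in these same data, so a change of sign was unlikely from the start. Paired fits used the animal as a replicate block. With no replicate block the calls for the difference were 925 (740 higher and 185 lower in Positive), with 670, 114, 53 and 17 genes in the groups of a rise larger in Positive, a fall larger in Positive, a rise larger in Input and a fall larger in Input, and with the Positive library of animal 271 added they were 1018 (808 and 210), with 141, 51 and 18 in the last 3 groups. Scaling by library totals gave 920 lower, 476 with a fall larger in Positive and 38 with a fall larger in Input, and centring on the microglia list gave 188 lower, 107 for a fall larger in Positive and 52 for a rise larger in Input. When animals 506 and 507 were left out together there were 920 calls (694 higher and 226 lower), 571, 124, 57 and 15 in the 4 groups, 5 with opposite directions and 1145 LPS calls in Input. With 5 female animals there were 458 calls (294 and 164), 265, 92, 47 and 5 in the 4 groups, 0 with opposite directions, and 2940 and 787 LPS calls in Positive and Input.

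Leaving out 1 animal at a time gave 1243 to 2215 calls, 895 to 1529 higher and 348 to 686 lower, 741 to 1288, 181 to 393, 86 to 140 and 20 to 62 in the 4 groups, and 8 to 18 with opposite directions. LPS calls were 4075 to 5011 in Positive and 1475 to 1925 in Input. Animal 507 moved the total furthest (1243, with 348 lower and 181 with a fall larger in Positive), and without animal 273 there were 378 lower, 200 with a fall larger in Positive and 86 with a rise larger in Input. DESeq2 (2041), limma on the ratios (1925) and on the deposited log2 values (1882), TMM (1972), no filter (2052), a mean of at least 100 (1864) and a sex term (1647) stayed within 1.5 times the 1916 calls. The cause of these shifts was not tested. With 6 residual degrees of freedom, a missing call does not show equal change.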
